A study of Mus musculus with 4 samples.

Results

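The cells described here are airway epithelial cells of mouse trachea that hold little Krt5 and Krt15 and also fall below limits for Krt13, for ciliated genes and for secretory genes. A barcode was a member when it had at least 500 detected genes, at least 1 UMI (unique molecular identifier, a count of 1 captured RNA molecule) of Epcam and 0 UMIs of Ptprc. Per 10000 UMIs of the cell it also had to hold less than 10 of Krt5 and Krt15 together and less than 10 of Krt13. The sum of Foxj1, Ccdc153, Dynlrb2 and Fam183b had to be below 20, and the sum of Scgb1a1, Scgb3a1, Scgb3a2 and Bpifa1 below 500. Of 6784 barcodes, 6356 were epithelial by Epcam and Ptprc, and 222 met the whole rule. They are called Krt5/Krt15-low cells below. The working name for them was intermediate cells, with Krt4, Hes1, Hpgd, Fmo6, S100g and Ces1f as markers, and the data went against that name, as described below.

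The series holds 4 single-cell libraries of the 10x Chromium system from the tracheas of 2 adult wild-type mice. Both mice had received 2% polidocanol, a detergent that strips the airway surface, into the trachea and 5 hours later 6000000 cells. Donor-derived cells of the iBC recipient carry GFP and descend from iBCs, basal cells made in culture from pluripotent stem cells. They were collected 192 days after transplantation, together with endogenous, GFP-negative cells of the same mouse, whose strain label is 129 X1/S1. Donor-derived cells of the primary BC recipient descend from transplanted primary basal cells, and they were collected at 69 days with the endogenous cells of that mouse, which was C57BL/6. Each group is 1 library from 1 animal, so no test between groups was possible. Intervals in the text are 95% exact intervals and cover counting error only. The cell kind transplanted, the day, the strain and the animal all differ between the recipients and cannot be told apart. The libraries held 21504563 to 26625123 UMIs, and 1 barcode each was shared between the iBC donor-derived library and either primary BC library, none of them a member.

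The tracheal surface is maintained by basal cells, which express the keratins Krt5 and Krt15 and the transcription factor Trp63 and renew the secretory and ciliated cells above them. Cells leaving the basal state lower Krt5, and the keratins Krt4 and Krt13 mark stratified patches of such cells called hillocks. Basal progeny also include rarer cells: ionocytes, which carry the chloride channel Cftr under the factors Foxi1 and Ascl3, tuft cells, which sense chemicals through Gnat3 and Trpm5, and neuroendocrine cells, marked by Chga and Calca. Microfold cells take up antigen, depend on Spib and secrete chemokines such as Ccl20.

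Krt5/Krt15-low cells made up 4.89% of the barcodes with at least 500 genes in the iBC donor-derived library (78 of 1596 cells, interval 3.88% to 6.06%). The share was 3.70% in the iBC endogenous library (70 of 1890 cells, 2.90% to 4.66%). It was 1.92% among primary BC donor-derived barcodes (36 of 1874 cells, 1.35% to 2.65%) and 2.68% among primary BC endogenous barcodes (38 of 1418 cells, 1.90% to 3.66%). The intervals of the donor-derived and endogenous libraries overlapped within each recipient. Under the rule, the interval of the iBC donor-derived library lay above those of both primary BC libraries. Its distance from the primary BC endogenous library moved with the limit. With Krt5 and Krt15 below 5, members were 47 of 1596 cells (2.94%) in the iBC donor-derived and 35 of 1418 in the primary BC endogenous library. With the limit at 20 the shares were 9.40% and 4.30%, and with a limit of 10 on Krt5 alone 21.9% and 19.1%.

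The members were shallower than the epithelial cells around them. Their median was 8042.5 UMIs against 12465 over all epithelial cells in the iBC donor-derived library and 5727.5 against 9655 in the iBC endogenous library. In the primary BC recipient the medians were 9517.5 against 11978 for donor-derived and 10144.5 against 14659.5 for endogenous cells. Mitochondrial transcripts made up a median 5.00% and 11.9% of the UMIs of members in the donor-derived and endogenous iBC libraries, and 9.59% and 9.16% in the primary BC libraries in the same order. Members above 20% numbered 3 of 78 and 19 of 70 in the iBC recipient and 8 of 36 and 11 of 38 in the primary BC recipient. Scrublet called 1 member a doublet, in the iBC donor-derived library.

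Many cells lay close to the limits, so the rule takes a range of cells. Over the 4 libraries, 49 members held 5 to 10 UMIs of Krt5 and Krt15 per 10000 and 61 other cells that met the remaining limits held 10 to 15. Of these, 31 members and 32 other cells came from the iBC donor-derived library, which had 78 members. For the ciliated sum, 42 members lay at 10 to 20 and 91 other cells at 20 to 30, and 30 of these members and 57 of these other cells came from the iBC endogenous library. For the secretory sum, 19 members lay at 250 to 500 and 30 other cells at 500 to 750. No cell that met the other limits lay within 5 of the Krt13 limit on either side.

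Members were chosen by measured UMIs of the genes of the rule. The 6 markers were mostly lower in Krt5/Krt15-low cells than in basal-gated cells, which are the cells with at least 10 Krt5 and Krt15 UMIs per 10000 that meet the other limits. UMIs were summed over the cells of a class and scaled to CPM (counts per 1000000 UMIs). Of 24 pairs of a marker and a library, the members' level was below that of basal-gated cells in 21 and above it in 3, all 3 in the iBC donor-derived library. A difference is called higher or lower below when it reached 2-fold with the nearest bound of its interval at 1.5-fold or more. By that limit 13 of the 24 pairs were lower in members and 0 were higher, and 12 of the 13 were among the 18 pairs that reached 20 CPM on either side. Over all genes compared, 1.85%, 5.69%, 6.02% and 6.81% were lower and 6.16%, 17.0%, 13.4% and 13.4% higher. These shares are for the iBC donor-derived, iBC endogenous, primary BC donor-derived and primary BC endogenous libraries, in that order. Krt5 and Krt15 chose both classes, so these values describe the classes and test nothing.

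**Figure D1:**
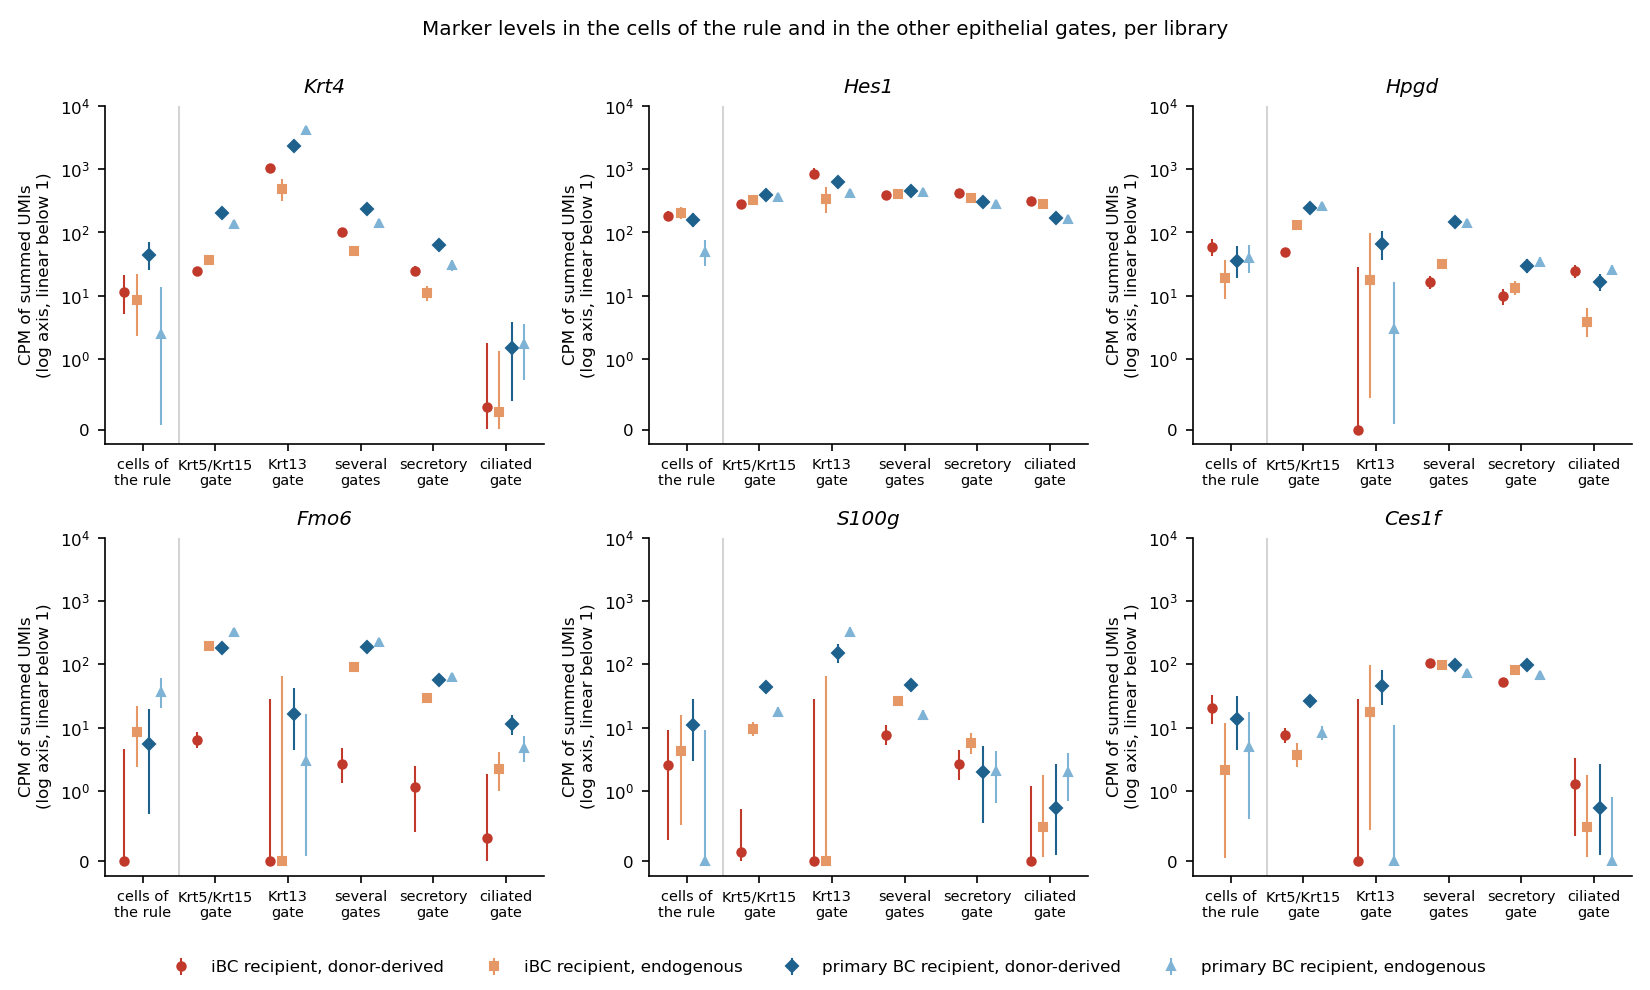
Summed level of 6 markers (CPM, log axis, linear below 1) in Krt5/Krt15-low cells and in the other epithelial gates, in each of the 4 libraries, with 95% exact Poisson intervals. Krt4 was highest in Krt13-gated cells, at up to 4106 CPM, and at most 44.1 CPM in the cells of the rule.

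Krt4 (GRCm38 chromosome 15, 101918535 to 101924735, minus strand) encodes a keratin of mucosal epithelium that pairs with the product of Krt13. Its summed level in members was 11.4 CPM in the iBC donor-derived library, 8.66 CPM in the iBC endogenous library, 44.1 CPM in the primary BC donor-derived library and 2.47 CPM in the primary BC endogenous library. These levels rest on 9, 4, 16 and 1 UMIs. In basal-gated cells the same libraries gave 24.4, 36.6, 205 and 136 CPM. Krt4 was lower in members than in basal-gated cells in the iBC endogenous library (4.23-fold, interval 1.63 to 15.7), among primary BC donor-derived cells (4.66-fold, 2.86 to 8.16) and among primary BC endogenous cells (55.1-fold, 9.87 to 2178). In the iBC donor-derived library it was 2.14-fold below (1.10 to 4.76), which did not reach the limit. Krt4 had a UMI in 5 of 78, 2 of 70, 3 of 36 and 1 of 38 members. Free RNA can give such UMIs, and its part here was not tested. In ciliated-gated cells, which should lack Krt4, 0.301% to 3.02% of cells had one, at median depths of 11660 to 18885 UMIs.

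Hes1 (chromosome 16, 30064384 to 30067796, plus strand) encodes a transcriptional repressor induced by Notch. It was the marker detected in most members, with a UMI in 54 of 78, 38 of 70, 16 of 36 and 12 of 38. Its summed level in members was 185 CPM (interval 156 to 218) among iBC donor-derived cells, 203 CPM (164 to 249) among iBC endogenous cells, 160 CPM (121 to 207) among primary BC donor-derived cells and 49.3 CPM (30.1 to 76.2) among primary BC endogenous cells. Basal-gated cells of these libraries had 279, 332, 392.3 and 365 CPM. Hes1 was lower in members than in basal-gated cells in both primary BC libraries, by 2.46-fold (1.90 to 3.24) among donor-derived cells and 7.40-fold (4.78 to 12.1) among endogenous cells. All other epithelial gates, ciliated-gated cells included, had 163 to 853 CPM of Hes1, so the gene was found in every gate, at unlike levels. Ciliated-gated cells of the primary BC recipient were at the low end, with 170 CPM among donor-derived and 163 CPM among endogenous cells.

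Hpgd (chromosome 8, 56294585 to 56321043, plus strand) encodes the enzyme that inactivates prostaglandins. Members had 58.3 CPM (42.7 to 77.8) in the iBC donor-derived library, where 23 of 78 cells had a UMI, and 19.5 CPM (8.91 to 37.0) in the iBC endogenous library, with 7 of 70 cells. They had 35.8 CPM (19.1 to 61.2) and 5 of 36 cells among primary BC donor-derived cells, and 39.4 CPM (22.5 to 64.1) and 4 of 38 cells among primary BC endogenous cells. In basal-gated cells the values were 49.3, 131, 243 and 266 CPM. The level was thus close to that of basal-gated cells among iBC donor-derived members (ratio 1.18, interval 0.852 to 1.61). In the other 3 libraries it was lower in members, by 6.75-fold, 6.795-fold and 6.74-fold. Members of the iBC donor-derived library held 7.603% of the Hpgd UMIs of its epithelial cells and 3.80% of all UMIs.

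Fmo6 (chromosome 1, 162916551 to 162937515, minus strand) belongs to the flavin-containing monooxygenases, a family of enzymes that oxidise foreign compounds. Members had 0 UMIs in the iBC donor-derived library, where 3 UMIs would have been 3.80 CPM. They had 8.66 CPM from 4 cells among iBC endogenous cells, 5.51 CPM from 2 cells among primary BC donor-derived cells and 37.0 CPM from 4 cells among primary BC endogenous cells. Basal-gated cells had 6.44, 198, 184 and 322 CPM. The gene was lower in members than in basal-gated cells in the last 3 of these libraries, by 22.9-fold (8.91 to 84.1), 33.4-fold (9.23 to 276) and 8.70-fold (5.26 to 15.6). Among basal-gated cells themselves, iBC donor-derived cells stood apart, with a UMI in 23 of 632 cells against 386 of 746 endogenous cells of the same mouse.

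S100g (chromosome X, 162961992 to 162964599, minus strand) encodes a small calcium-binding protein regulated by vitamin D. It had 2, 2, 4 and 0 UMIs in members of the iBC donor-derived, iBC endogenous, primary BC donor-derived and primary BC endogenous libraries, in 2, 1, 2 and 0 cells. Their summed levels were 2.54, 4.33, 11.02 and 0 CPM, and those of basal-gated cells 0.134, 9.65, 44.1 and 17.8 CPM. Among primary BC donor-derived cells S100g was lower in members by 4.003-fold (1.55 to 14.7). Ces1f (chromosome 8, 93256236 to 93279747, minus strand), a carboxylesterase, had 16, 1, 5 and 2 UMIs in members of the 4 libraries in the same order, or 20.3, 2.16, 13.8 and 4.93 CPM. Of the 16 UMIs in the iBC donor-derived library 81.2% came from 1 cell. Secretory-gated cells, with at least 500 UMIs of the secretory sum and little Krt5, Krt15 and Krt13, had more Ces1f, at 53.2, 81.0, 99.0 and 68.3 CPM.

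Members were also thinned to 5000 UMIs each, which left out 10, 28, 3 and 3 shallower members. The share of members with a Hes1 UMI was then 52.9%, 50%, 36.4% and 17.1% in the iBC donor-derived, iBC endogenous, primary BC donor-derived and primary BC endogenous libraries, against 69.2%, 54.3%, 44.4% and 31.6% unthinned. For Hpgd the thinned shares were 25.0%, 7.14%, 15.2% and 11.4%. S100g was then seen in 0%, 2.38%, 3.03% and 0% of the members kept.

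Along the sum of Krt5 and Krt15, Krt4 and Fmo6 were highest above the limit of the rule in all 4 libraries. Cells with neither keratin numbered 29, 50, 26 and 24 in the iBC donor-derived, iBC endogenous, primary BC donor-derived and primary BC endogenous libraries. Their Krt4 was 3.13, 0, 3.72 and 0 CPM, while cells at 80 to 160 UMIs per 10000 had 49.7, 65.5, 255 and 237 CPM. Fmo6 in cells with neither keratin was 0, 6.14, 3.72 and 0 CPM, and at 20 to 40 it was 8.57, 191, 158 and 337 CPM. Hes1 in cells with neither keratin was 159, 190, 74.3 and 28.6 CPM.

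**Figure D2:**
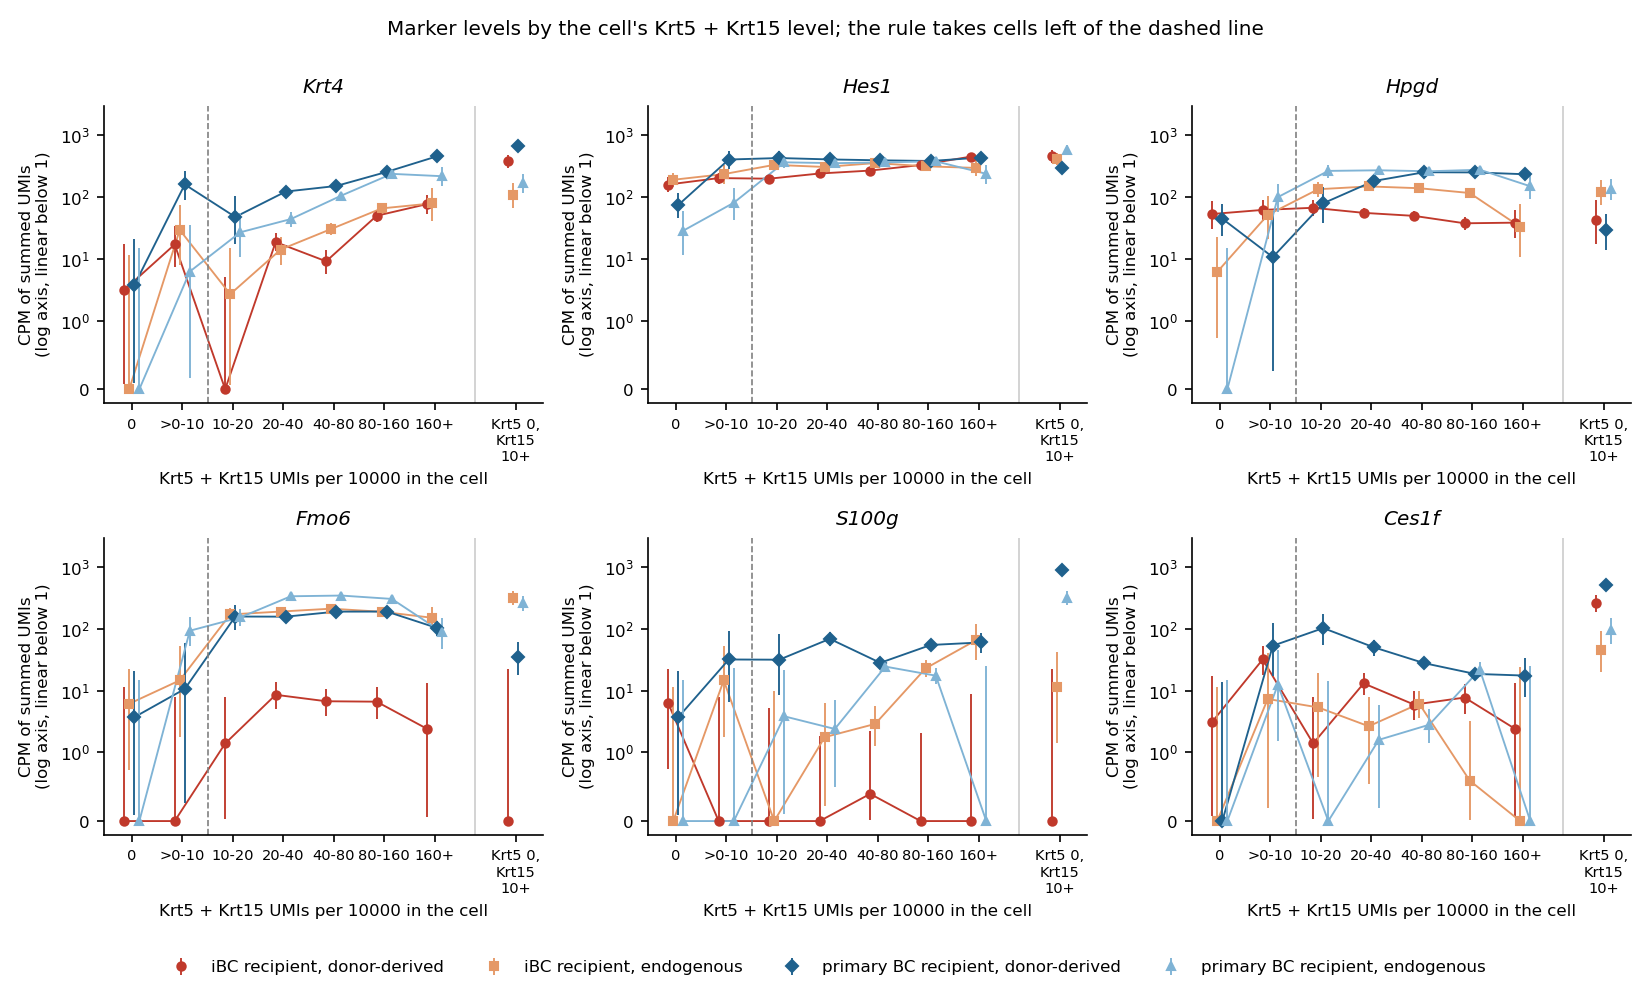
Summed level of the 6 markers (CPM, log axis, linear below 1) in cells binned by their Krt5 and Krt15 UMIs per 10000 (the other limits of the rule kept), per library with 95% exact Poisson intervals; the dashed line is the limit of 10. The rightmost points are cells with 0 Krt5 and at least 10 Krt15, where S100g reached 889 CPM among primary BC donor-derived cells.

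Cells with 0 Krt5 that had Krt15 held more of these markers. With 0 Krt5, at least 10 Krt15 per 10000 and the other limits met, there were 18, 19, 21 and 13 cells in the 4 libraries in the same order. Krt4 reached 380, 110, 683 and 169 CPM there, and Ces1f 264, 46.3, 511 and 94.4 CPM. S100g was 0, 11.6, 889 and 318 CPM, so its high levels were in the primary BC recipient. Because the rule sums Krt5 with Krt15, these cells are not members. A limit on Krt5 alone, chosen after the values were seen, would take 350, 334, 224 and 271 cells, of which 272, 264, 188 and 233 are basal-gated by the rule. Of its 24 marker levels 12 were at or above those of the basal-gated cells it leaves, against 3 of 24 under the rule.

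The members were a mixture of cells with unlike leading genes. A cell was counted as a carrier of a marker list when it had UMIs of at least 3 of the list's genes and at least 20 UMIs per 10000 over the list, with the genes of the rule left out. This limit was chosen after the values were seen. Of the 222 members 73 (32.9%) carried an ionocyte, tuft, neuroendocrine, microfold or deuterosomal list. The rest were counted under the first list they carried of the ciliated list, with 53 cells (23.9%), the basal list, with 39 (17.6%), and the secretory list, with 54 (24.3%), and 3 carried none of these. The hillock and alveolar lists were not used in this order, and 36 of the 54 cells counted under the secretory list carried 1 or both of them. All 53 cells counted under the ciliated list also carried the secretory list. The secretory list set no class apart, since 96.2% to 99.8% of basal-gated cells carried it as well. The hillock list did not set members apart in the iBC recipient either. It was carried by 73.1% of donor-derived members, against 86.9% of basal-gated, 82.8% of secretory-gated and 88.4% of ciliated-gated cells. In the endogenous library the shares were 25.7%, 51.2%, 37.0% and 83.7% in the same order.

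The mixture differed between the libraries. Carriers of the rarer-type lists were 15 of 78 members (19.2%, interval 11.2% to 29.7%) among iBC donor-derived cells and 11 of 70 (15.7%, 8.11% to 26.4%) among iBC endogenous cells. They were 22 of 36 (61.1%, 43.5% to 76.9%) among primary BC donor-derived cells and 25 of 38 (65.8%, 48.6% to 80.4%) among primary BC endogenous cells. The intervals of both primary BC libraries lay above those of both iBC libraries. No member carried more than 1 of the rarer-type lists. Cells counted under the ciliated list were 2 of 78, 37 of 70, 7 of 36 and 7 of 38, and cells counted under the basal list 30 of 78, 8 of 70, 0 of 36 and 1 of 38.

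**Figure D3:**
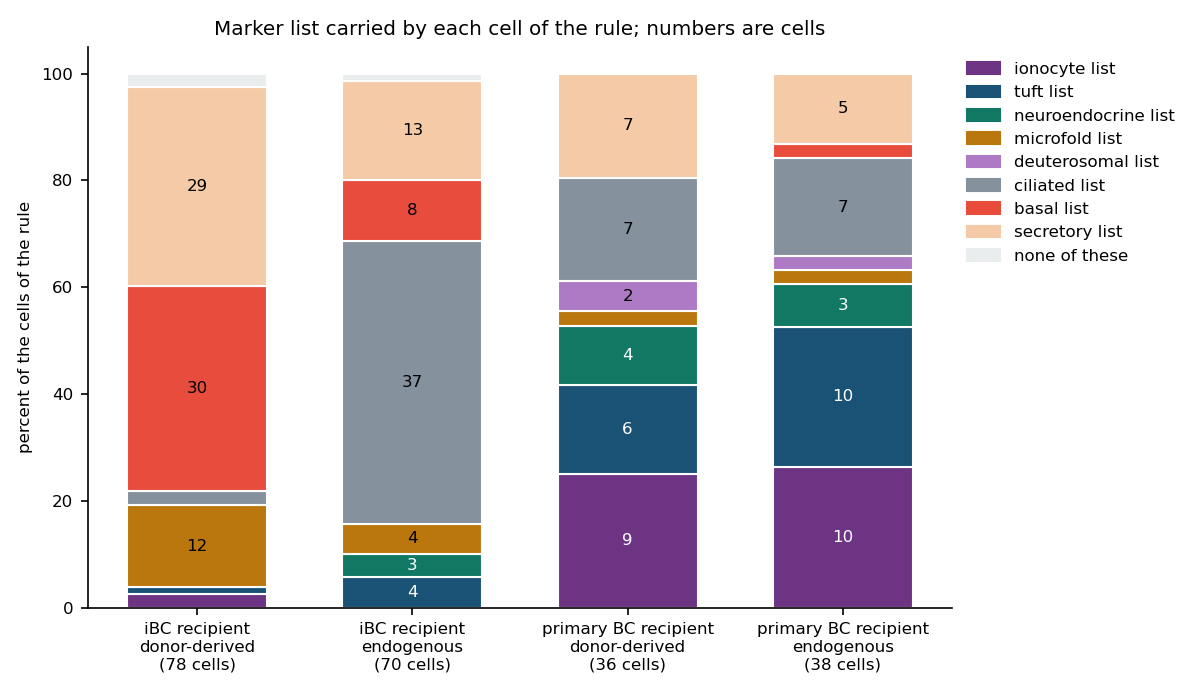
Share of the Krt5/Krt15-low cells of each library (percent) by the marker list they carried; a cell is counted once, for a rarer-type list first, then the ciliated, basal and secretory lists, and numbers in the bars are cells. The ionocyte and tuft lists held 9 and 6 of 36 cells in the primary BC donor-derived library and 10 and 10 of 38 in the primary BC endogenous one.

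The ionocyte list was carried by 9 of 36 primary BC donor-derived and 10 of 38 primary BC endogenous members, and by 2 of 78 and 0 of 70 members in the donor-derived and endogenous iBC libraries. Ascl3 had 304 UMIs (837 CPM) in 10 donor-derived members and 382 UMIs (942 CPM) in 11 endogenous members of the primary BC recipient. It had 1 UMI in iBC donor-derived members and 0 in iBC endogenous members. Foxi1 was at 7.61, 58.4, 223 and 338 CPM in the members of the 4 libraries and at 0 in all basal-gated cells. Cftr was at 33.0, 23.8, 264 and 232 CPM. The adaptor protein gene Stap1 had 43.1, 36.8, 1242 and 1102 CPM in members against 0.269, 0, 0.590 and 0.249 CPM in basal-gated cells.

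The tuft list was carried by 1 of 78, 4 of 70, 6 of 36 and 10 of 38 members. Gnat3, the taste transduction G protein subunit, was at 5.07, 62.8, 303 and 853 CPM in members of the iBC donor-derived, iBC endogenous, primary BC donor-derived and primary BC endogenous libraries, where 1, 4, 5 and 11 cells had it. The cation channel gene Trpm5 was at 8.88, 32.5, 90.9 and 328 CPM, and the regulator of G-protein signalling Rgs13 at 20.3, 104, 176 and 362 CPM. Alox5ap, needed for leukotriene synthesis, was at 15.2, 97.4, 242 and 424 CPM. In basal-gated cells Trpm5 and Rgs13 were at 0 UMIs in all libraries except 1 Trpm5 UMI among primary BC endogenous cells.

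The neuroendocrine list was carried by 0 of 78, 3 of 70, 4 of 36 and 3 of 38 members. The peptide hormone gene Calca had 0 UMIs in iBC donor-derived members, where 3 UMIs would have been 3.80 CPM, and 284, 85.4 and 187 CPM in the other 3. Chga was at 0, 41.1, 174 and 128 CPM. For the 0 of 78 carriers among iBC donor-derived members the exact interval reached up to 4.62%.

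The microfold list ran the other way, with 12 of 78 carriers among iBC donor-derived members, 4 of 70 among iBC endogenous, 1 of 36 among primary BC donor-derived and 1 of 38 among primary BC endogenous members. The chemokine gene Ccl9 was at 1079 CPM from 13 cells in iBC donor-derived members, 476 CPM from 4 cells in iBC endogenous members, 110 CPM from 1 cell in primary BC donor-derived members and 340 CPM from 2 cells in primary BC endogenous members. Ccl20 was at 2701, 2621, 152 and 1501 CPM and Spib at 482, 284, 44.1 and 195 CPM. Gp2, the uptake receptor of mature microfold cells, was at 5.07 CPM in iBC donor-derived members, with 4 UMIs in 1 cell, and at 117 CPM in iBC endogenous members. The 12 iBC donor-derived carriers were deep, with a median of 19038.5 UMIs against 8042.5 over all members of that library. Of those members 6 also carried the immune list, all 6 of them carriers of a rarer-type list. Lyz2, a gene of the immune list, was at 9998 CPM in the rarer-type carriers of that library against 12.3 CPM in carriers of the basal list. Lyz2 alone does not make a carrier. Rarer-type carriers of the primary BC libraries had 10899 and 11271 CPM of it, and 0 of 22 and 0 of 25 carried the immune list. Ptprc was 0 in all members by the rule.

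**Figure D4:**
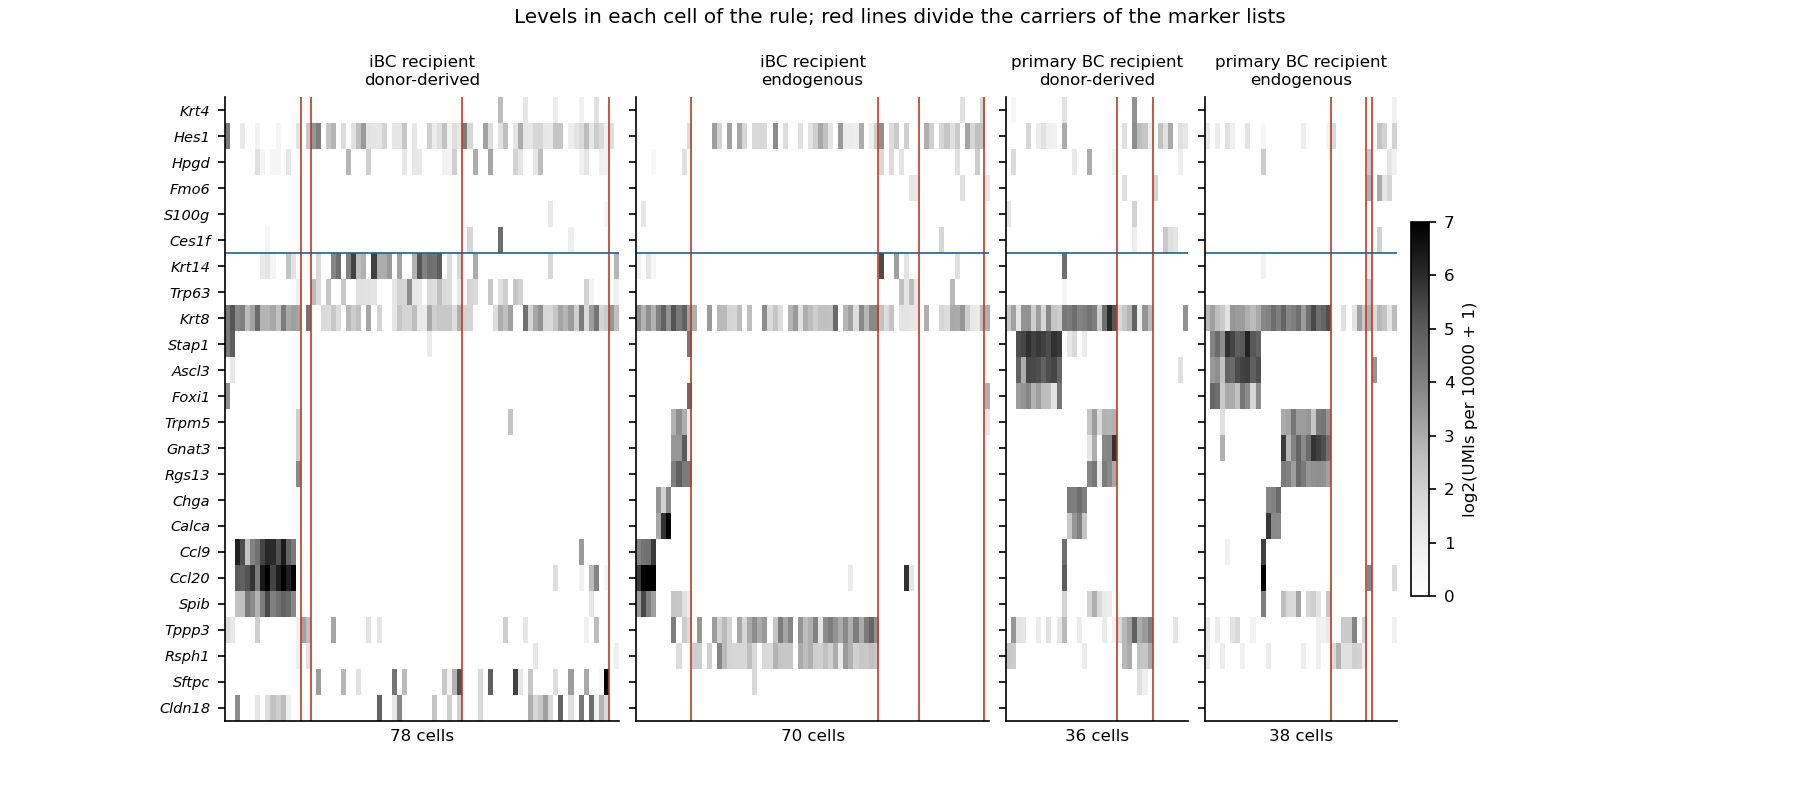
Levels of 24 genes (rows) in each of the 222 Krt5/Krt15-low cells (columns), as log2 of UMIs per 10000 plus 1, by library; red lines divide, from left to right, carriers of a rarer-type list, the ciliated, the basal and the secretory list and of none, and the blue line sets off the 6 markers. Gene blocks such as Stap1 with Ascl3, Trpm5 with Gnat3 and Ccl9 with Ccl20 fall in separate cells.

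Krt4 and Fmo6 had few or no UMIs in the carriers of rarer-type lists, while Hpgd was found there. In those carriers Krt4 had 0, 0, 4 and 0 UMIs in the iBC donor-derived, iBC endogenous, primary BC donor-derived and primary BC endogenous libraries, and Fmo6 had 0 in all 4. Hes1 in these carriers was at 61.9, 17.0, 85.4 and 32.3 CPM, and in cells counted under the secretory list at 241, 339, 208 and 225 CPM. These carriers held 9 of 46 and 2 of 9 Hpgd UMIs of the donor-derived and endogenous iBC members, and 12 of 13 and 10 of 16 in the primary BC libraries in the same order. Both S100g UMIs of the iBC endogenous members were also in them. All 9 Krt4 UMIs of the iBC donor-derived members and all 4 of the iBC endogenous members came from cells counted under the secretory list. Krt14, another basal keratin, was at 996 CPM and Trp63 at 184 CPM in the 30 iBC donor-derived carriers of the basal list. These cells met the limit on Krt5 and Krt15 at a median of 7221 UMIs.

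Mitochondrial shares were high in members counted under the ciliated list, and in the primary BC recipient also in those counted under the secretory list. In the iBC endogenous library the 37 carriers had a median of 5037 UMIs and 18.5% mitochondrial UMIs, and 15 of them were above 20%. The median share was 14.4% in the 7 primary BC donor-derived carriers and 32.3% in the 7 primary BC endogenous ones. In cells counted under the secretory list it was 34.5% in the 7 donor-derived and 26.5% in the 5 endogenous cells of the primary BC recipient, with 5 and 4 of them above 20%, and the Hes1 levels of 208 and 225 CPM rest on these cells. The 13 iBC endogenous cells counted under that list, whose Hes1 was at 339 CPM, had a median of 10.6%. Of these 13 cells 4 were above 20%, and the median over all epithelial cells of that library was 5.44%. Tppp3, a microtubule gene of ciliated cells, was at 49.5, 472, 391 and 71.5 CPM in members of the 4 libraries, and the radial spoke gene Rsph1 at 7.61, 195, 132 and 41.9 CPM. The part of RNA quality in these cells was not tested.

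In the iBC recipient, donor-derived members were set against endogenous members of the same mouse. Of 7660 genes that reached 20 CPM in 1 of the sums, 378 were higher in donor-derived members (4.93%) and 824 were lower (10.8%), 1202 in all (15.7%). Sex-linked genes, the reporters and the genes of the rule were left out. Without the carriers of rarer-type and ciliated lists, an alternative added after the values were seen, 313 genes passed the limit. It left few endogenous members, 8 counted under the basal list, 13 under the secretory list and 1 under none. The mitochondrial medians of the members were 5.00% and 11.9%, and 8 of 13 mitochondrially encoded genes were lower in donor-derived members.

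Genes of lung alveolar cells were among the leading genes higher in iBC donor-derived members. The surfactant gene Sftpc was at 2431 CPM in donor-derived against 2.16 CPM in endogenous members, but 89.4% of its 1917 UMIs came from 1 cell, and 19 of 78 cells had any. The tight-junction gene Cldn18 was at 274 CPM in donor-derived members, in 26 of 78 cells, against 0 UMIs in endogenous ones, where 3 UMIs would have been 6.49 CPM. Ager, a receptor abundant on flat alveolar cells, was at 318 CPM in 23 cells against 4.33 CPM in 1 cell (ratio 73.5, interval 20.1 to 611). Of 10 alveolar genes measured 4 were higher and 2 lower, beside a median log2 ratio of 0.27 for the list and 0.12 over all genes. The alveolar list was carried by 25 of 78 donor-derived and 9 of 70 endogenous members, while 3.64% and 1.07% of basal-gated cells and 50.7% and 25.3% of secretory-gated cells of the same libraries carried it. The epithelial factor Hopx was also higher, at 405 against 123 CPM (3.28-fold).

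Most of the other leading genes were spread over more cells. C130026I21Rik was at 222 CPM in 55 of 78 donor-derived members against 2.16 CPM in 1 of 70 endogenous ones, and AC168977.1 was at 115 CPM in 42 cells against 0 UMIs. The cell-cycle inhibitor Cdkn2a was at 98.9 CPM in 37 donor-derived members against 0 UMIs in endogenous members, and basal-gated cells showed the same split, at 71.3 against 0 CPM. Cryab, a small heat shock protein, was at 295 against 10.8 CPM (27.3-fold, interval 11.5 to 84.9). The collagen gene Col4a3 and the homeobox gene Pbx3 were at 71.0 and 65.9 CPM in donor-derived members, in 29 and 34 cells, and at 0 UMIs in endogenous ones. Gm4841 was at 167 against 6.49 CPM, in 12 donor-derived cells.

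Of 13 basal-list genes measured, 6 were higher and 1 lower in iBC donor-derived members, with a list median of 0.67 on the log2 scale. Krt14 was at 350 against 60.6 CPM (5.78-fold) and the repressor Snai2 at 52.0 against 4.33 CPM (12.01-fold). Of 7 MHC class II genes, which present antigen, 6 were higher and 0 lower, including Cd74 at 3183 against 738 CPM and H2-Aa at 749 against 177 CPM. Basal-gated cells differed in the same direction, with Cd74 at 2424 against 412 CPM. The bladder and stomach surface gene Psca was at 1964 against 734 CPM (2.68-fold).

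All 9 ciliated-list genes measured were lower in iBC donor-derived members. The dynein heavy chain gene Dnah3 was at 2.54 against 387 CPM, the central-pair gene Hydin at 1.27 against 359 CPM, and Ccdc39 at 0 UMIs against 255 CPM. Syne1, a nuclear envelope protein, was at 5.07 against 491 CPM. These stood beside 2 and 37 carriers of the ciliated list. All 8 neuroendocrine genes measured were lower, Calca among them at 0 UMIs against 284 CPM, where 66.4% of the endogenous UMIs were from 1 cell. Of 8 tuft genes 5 were lower.

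The other leading genes lower in iBC donor-derived members were of several kinds. Of 8 antimicrobial and acute phase genes measured 3 were lower and 1 higher. The antimicrobial lectin Reg3g had 0 UMIs in donor-derived members, where 3 would have been 3.80 CPM, against 929 UMIs in 38 endogenous cells (2011 CPM). A2ml1, a protease inhibitor, had 0 UMIs against 1199 CPM, and the sulfotransferase Sult1d1 was at 2.54 against 578 CPM. Cd177 was at 1.27 against 353 CPM and the cadherin Cdh26 at 0 UMIs against 303 CPM. Without the carriers of rarer-type and ciliated lists Reg3g, A2ml1, Sult1d1, Cd177, Ccdc39 and Syne1 stayed lower, Hydin and Dnah3 no longer passed, and Cdh26 and Calca were at 0 on both sides. None of the 6 markers passed the limit: Hes1 was at 185 against 203 CPM (ratio 0.910, interval 0.697 to 1.19) and Hpgd at 58.3 against 19.5 CPM (2.99, 1.45 to 6.96).

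The counts of pathway lists stand beside the 4.93% of all genes that were higher and the 10.8% that were lower in donor-derived members. Of 19 Notch genes 1 was higher, the ligand Jag2, at 62.1 against 19.5 CPM (3.19-fold) in donor-derived and endogenous iBC members, and it did not pass after centring on the median of all genes. In the prostaglandin list 1 of 10 genes was higher and 2 were lower: Ptges, which makes prostaglandin E, had 0 UMIs against 26.0 CPM, and the cyclooxygenase gene Ptgs1 was at 5.07 against 45.4 CPM. Membrane mucins split, with Muc1 higher at 189 against 49.8 CPM and Muc4 and Muc16 lower at 30.4 against 305 and 167 against 881 CPM. None of 8 desmosome and 11 hemidesmosome and matrix genes passed.

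**Figure D5:**
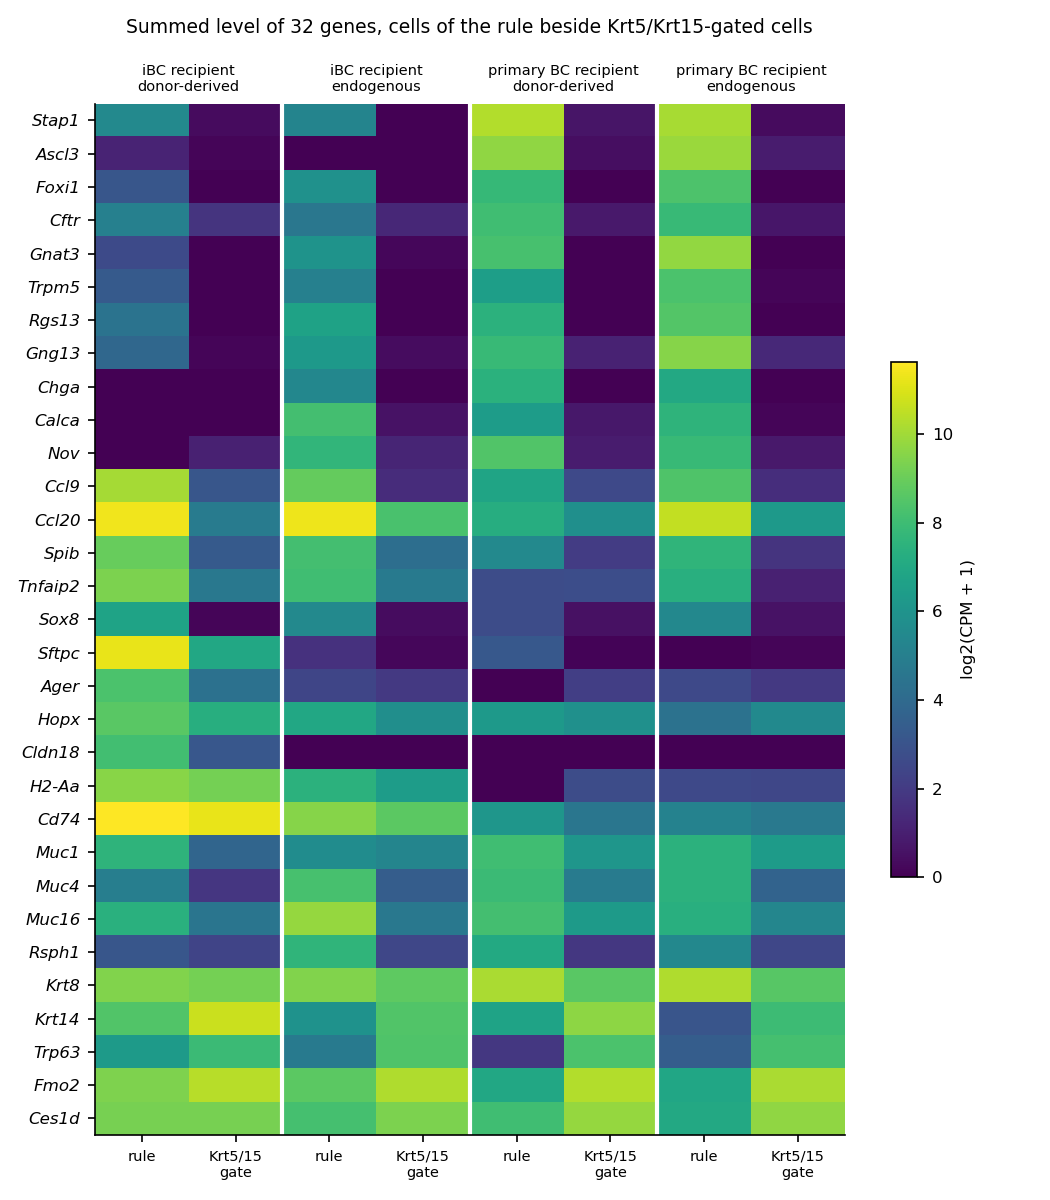
Summed level, as log2 of CPM plus 1, of genes that lead the marker lists, in Krt5/Krt15-low cells beside basal-gated (Krt5/15 gate) cells of each library. Ionocyte and tuft genes stand out in members of the primary BC recipient, with Ascl3 at 837 and 942 CPM in donor-derived and endogenous members, and Ccl9 in members of the iBC donor-derived library. Sftpc is also high in iBC donor-derived members, with most of its UMIs from 1 cell. The neuroendocrine gene Calca is highest in iBC endogenous members.

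Donor-derived members of the iBC recipient were also set against those of the primary BC recipient, a comparison in which donor cell kind, day, strain and animal cannot be told apart. Of 7861 genes 541 were higher in iBC members (6.88%) and 856 lower (10.9%), 1397 in all (17.8%), and TMM scaling gave 642 higher and 656 lower. All 8 ionocyte genes, 8 of 8 neuroendocrine and 8 of 9 tuft genes measured were lower in iBC members, and 6 of 8 microfold genes, 8 of 12 basal genes and 5 of 7 alveolar genes were higher. Ascl3 was at 1.27 CPM in iBC against 837 CPM in primary BC members. Nov, a matrix-associated growth regulator, had 0 UMIs against 361 CPM. Lyz1 was at 5.07 against 1204 CPM, but its primary BC UMIs came from 2 cells.

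All 7 MHC class II genes and 9 of 13 MHC class I genes were higher in iBC donor-derived members. H2-Aa and H2-Eb1 were at 749 and 720 CPM, in 58 and 65 of 78 cells, against 0 UMIs in primary BC donor-derived members, where 3 UMIs would have been 8.26 CPM. H2-Ab1 was at 545 against 2.75 CPM. Psca was at 1964 CPM in 33 cells against 0 UMIs, and BC018473 at 332 CPM against 0 UMIs. The metalloproteinase inhibitor Timp3 was at 1338 against 8.26 CPM (162-fold, interval 55.2 to 786) and the chaperone Clu at 2321 against 22.04 CPM. The fatty acid carrier Fabp5 was at 2729 against 22.04 CPM. Ftl1-ps1 was at 1144 against 5.51 CPM, and it is a near copy of a ferritin gene whose reads the counting could share.

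Reg3g had 0 UMIs in iBC donor-derived against 9008 CPM in primary BC donor-derived members, of which 55.5% came from 1 cell. A2ml1 had 0 UMIs against 1600 CPM and the secretory chaperone Agr2 was at 1.27 against 245 CPM. The transporter Slc16a11 and the retinol dehydrogenase family gene Dhrs9 had 0 UMIs against 212 and 248 CPM, in 20 and 18 of 36 primary BC members. Riiad1 had 0 UMIs against 187 CPM. Krt4 was lower in iBC members, at 11.4 against 44.1 CPM, and 75.0% of the 16 UMIs of the primary BC members were from 1 cell. With Krt5 and Krt15 below 5 its direction turned, to a log2 ratio of 0.96. The other 5 markers did not pass, with Hes1 at 185 against 160 CPM and Fmo6 at 0 against 2 UMIs.

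In the primary BC recipient each class held fewer than 50 cells, so this comparison was added with a minimum of 30. Of 7573 genes 133 were higher in donor-derived than in endogenous members (1.76%) and 100 lower (1.32%), 233 in all (3.08%). Of 9 tuft genes 7 were lower in donor-derived members, with Trpm5 at 90.9 against 328 CPM, Gng13 at 226 against 732 CPM and Gnat3 at 303 against 853 CPM, beside 6 and 10 carriers of the tuft list. None of 8 ionocyte and 9 neuroendocrine genes passed, and Foxi1 was at 223 against 338 CPM. Of 9 ciliated genes 7 were higher, Tmem212 among them at 286 against 34.5 CPM, of whose donor-derived UMIs 53.8% came from 1 cell. Microfold genes were lower in 6 of 8, resting on 1 carrier in each library, with Ccl20 at 152 against 1501 CPM and Tnfaip2 at 5.51 against 163 CPM.

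Many of the other genes that passed in the primary BC recipient also rested on few cells. The galectin gene Lgals3 was at 972 against 101 CPM in donor-derived and endogenous members, with 48.7% of the donor-derived UMIs from 1 cell. The water channel gene Aqp5 was at 452 against 73.96 CPM, 63.4% from 1 cell, and the stress gene Gadd45b at 187 against 19.7 CPM, 72.1% from 1 cell. Surfactant protein gene Sftpd was at 485 against 73.96 CPM, in 16 and 9 cells. Hes1 was higher, at 160 against 49.3 CPM (3.24-fold, interval 1.92 to 5.69), as was Krt4, at 44.1 against 2.47 CPM, while Fmo6 was lower, at 5.51 against 37.0 CPM. The Krt4 levels rested on 16 against 1 UMIs, most of the 16 from 1 cell. With Krt5 and Krt15 below 5, Krt4 was at 3.24 against 2.63 CPM. Hes1 was then at 87.5 against 39.4 CPM, from 27 and 15 UMIs. Under the rule, 27 of the 58 Hes1 UMIs of the donor-derived members were from 7 cells counted under the ciliated list. Of the 15 Fmo6 UMIs of the endogenous members 46.7% were from 1 cell, and with Krt5 and Krt15 below 5 the levels were 6.48 against 5.25 CPM, a log2 ratio of 0.16. Ifi27l2a, an interferon-induced gene, was at 71.6 against 436 CPM, in 10 and 17 cells.

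Set against basal-gated cells of the same library, members differed in a number of genes that, in the iBC recipient, fell when carriers of rarer-type and ciliated lists were left out. Of 6937 genes among iBC donor-derived cells 427 were higher in members (6.16%) and 128 lower (1.85%), 555 in all (8.0%). Among iBC endogenous cells 1265 of 7428 genes were higher (17.0%) and 423 lower (5.69%), 1688 in all (22.7%). Without the carriers of rarer-type and ciliated lists the counts were 249 among iBC donor-derived and 181 among iBC endogenous cells. The members left were those counted under the basal list, the secretory list and none of these. They numbered 30, 29 and 2 iBC donor-derived and 8, 13 and 1 iBC endogenous cells, the latter below the minimum of 30 in all. The part of cell number in these drops was not tested. Among primary BC donor-derived cells 1019 of 7625 were higher (13.4%) and 459 lower (6.02%), 1478 in all (19.4%), and among primary BC endogenous cells 990 of 7371 were higher (13.4%) and 502 lower (6.81%), 1492 in all (20.2%). The number of genes that can pass moves with the number of cells and UMIs in each class, and the classes split the same cells by Krt5 and Krt15. With TMM scaling, which allows for a few abundant genes, more of the genes that passed were lower: 1002 higher and 591 lower among iBC endogenous cells, 719 and 643 among primary BC donor-derived cells, and 666 and 736 among primary BC endogenous cells. Centring on the median of all genes gave 795 higher and 649 lower in the last of these. The median log2 ratio of all genes was 0.00, 0.08, 0.17 and 0.18 in the 4 libraries.

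The leading genes higher in members over basal-gated cells included genes of the rarer and the ciliated cells. In iBC donor-derived members they were led by Fabp5 at 2729 against 17.6 CPM, Lyz2 at 2971 against 23.4 CPM, Ccl9 at 1079 against 7.65 CPM and Ccl20 at 2701 against 27.7 CPM. Hepacam2 was at 238 CPM in 13 of these members against 0 UMIs in 632 basal-gated cells. In iBC endogenous members Ccl9, Fabp5 and the ion pump regulator Fxyd2 led, with the axonemal gene Dnah5 at 801 against 6.05 CPM and A2ml1 at 1199 against 16.02 CPM. Without the carriers of rarer-type and ciliated lists the log2 ratios of Ccl9 and Fxyd2 turned to -0.44 and -0.18 there, and that of Hepacam2 in iBC donor-derived cells was 0. In the primary BC recipient Stap1, Ascl3 and the tuft gene Lrmp led in both libraries, with Lrmp at 636 CPM in donor-derived members against 0 UMIs, and at 1718 against 0.124 CPM in endogenous members. Gnat3 was among the 5 leading genes of the endogenous members, and Lyz1 in both libraries rested on 2 cells.

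Most genes of the basal list were lower in members than in basal-gated cells. Of those measured, 9 of 14 were lower in iBC donor-derived members, 12 of 14 in iBC endogenous, 14 of 15 in primary BC donor-derived and 14 of 15 in primary BC endogenous members, and 0 were higher. Trp63 was at 26.0 against 348 CPM in iBC endogenous cells and at 2.75 against 326 CPM in primary BC donor-derived cells. The matrix gene Abi3bp was at 2.54 against 54.4 CPM, 77.9 against 1037 CPM and 0 UMIs against 1157 CPM in iBC donor-derived, iBC endogenous and primary BC donor-derived cells. Krt17 in the primary BC recipient was at 19.3 against 1066 CPM among donor-derived and 14.8 against 763 CPM among endogenous cells, and Aqp3 at 56.7 against 1739 CPM in the endogenous cells. In iBC donor-derived cells Upk3bl and the mitotic gene Cenpf had 0 UMIs against 68.3 and 56.0 CPM, and the hemidesmosome collagen gene Col17a1 was at 15.2 against 98.0 CPM.

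The counts of pathway lists stand beside the shares of all genes above, 6.16%, 17.0%, 13.4% and 13.4% higher and 1.85%, 5.69%, 6.02% and 6.81% lower in the 4 libraries. Membrane mucins were higher, 3 of 3, 3 of 4, 4 of 4 and 4 of 4 in the iBC donor-derived, iBC endogenous, primary BC donor-derived and primary BC endogenous libraries. Claudins and other tight-junction genes were higher in 10 of 14, 8 of 13, 5 of 12 and 5 of 13 and lower in 0, and with TMM scaling the last of these counts was 1 of 10. Detoxifying enzymes were lower in 3 of 23, 6 of 24, 15 of 24 and 16 of 24 and higher in 3, 5, 3 and 1. Hemidesmosome and matrix genes were lower in 4 of 11, 4 of 11, 6 of 12 and 7 of 11. Fmo2, the most abundant flavin monooxygenase, was at 671 against 1352 CPM, 422 against 1212 CPM, 124 against 1254 CPM and 116 against 1127 CPM. Of Notch pathway genes there were 1 higher and 2 lower of 19, 0 and 3 of 18, 1 and 6 of 19, and 0 and 3 of 18. Jag2 was below basal-gated cells in every library, at 62.1 against 154, 19.5 against 160, 13.8 against 174 and 14.8 against 159 CPM.

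The comparison with secretory-gated cells of the iBC recipient depended on the scaling. Their Scgb1a1 alone was at 276975 and 261735 CPM in the donor-derived and endogenous libraries. Among iBC donor-derived cells 917 of 6592 genes were higher in members (13.9%) and 99 lower (1.5%), 1016 in all (15.4%), and the median log2 ratio of all genes was 0.52. Among iBC endogenous cells 2320 of 6737 were higher (34.4%) and 100 lower (1.48%), 2420 in all (35.9%), with a median of 0.85. With TMM scaling 329 genes were higher and 271 lower among donor-derived cells, and 761 and 395 among endogenous cells. Centring on the median gave 319 and 235, and 687 and 287. The secretory genes Bpifb1, at 34.2 against 1331 CPM and 56.3 against 2638 CPM in donor-derived and endogenous cells, and Agr2, at 1.27 against 89.0 CPM and 39.0 against 683 CPM, were lower in members by far more than these shifts. Hes1 was lower in donor-derived members, at 185 against 414 CPM (2.24-fold), and Hpgd higher, at 58.3 against 9.80 CPM (5.95-fold, interval 3.91 to 9.05).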

How the data were processed

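The deposited matrices hold whole-number UMI counts per gene and barcode, with 30907 features, as the authors left them. The submitters' processing notes name Cell Ranger, STARsolo, Seurat and GRCm38, with roles and versions not given in the sources used here. The protocol also names an uninjured control trachea, which was not analysed here. Cells were gated by the rule with Python 3.11.15, and the UMIs of the cells of a class were added up in each library and expressed as CPM, with exact Poisson intervals for levels, exact binomial intervals for ratios and Clopper-Pearson intervals for shares. Genes with at least 20 CPM in either class were compared, and log2 ratios had a pseudocount of 5 CPM. Classes needed 50 cells, lowered to 30 for the primary BC recipient after the data were seen. Named genes were the 10 of largest log2 ratio in each direction between libraries and the 5 between gates, among those past the limit with at least 50 CPM and 50 UMIs on the higher side. The 6 markers and list members are named beside them, and some genes of these rules are not reported here. Scaling alternatives used TMM from edgeR 4.0.16. Doublets were called with Scrublet in scanpy 1.11.5 and kept. The comparison was tried on simulated Poisson sums with planted changes. Those sums hold no variation between cells, so they cannot show how calls behave where few cells gave most of the UMIs. Of 553 list genes 1 had no match. Members and lists were chosen with earlier results of these data known. Near-copies within the H2, Ces1, Fmo and Lyz families may share reads. In 127 features the symbol is duplicated, and the gene ID told them apart. Genes are positioned by GENCODE vM21.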

Additional observations from a re-analysis of the deposited data

Results flagged for a closer look

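The matrices hold a second reporter feature, mCherry-FRT, beside the GFP reporter used for sorting. It had 7 UMIs in the Krt5/Krt15-low cells of the iBC donor-derived library, more than the 3 UMIs taken as the limit of a count of 0, and no comparison above used it.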

How the results depend on the processing

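No paired analysis was possible because each group is 1 library and the labels carry no replicate numbers. Of 24 marker levels, 3 were at or above the basal-gated cells not selected in 6 alternatives (1000 genes, mitochondrial share at most 20%, doublets left out, Krt5 and Krt15 below 5, Krt13 below 5, ciliated sum below 10), 4 with Krt5 and Krt15 below 20 or the secretory sum below 200, and 12 with Krt5 alone. Shares of members moved beyond their intervals in 10 of 36 alternatives. In the iBC donor-derived library they were 2.94% (Krt5 and Krt15 below 5), 9.40% (below 20) and 21.9% (Krt5 alone), and in the iBC endogenous library 2.76% (mitochondrial share at most 20%), 5.93% (below 20), 2.12% (ciliated sum below 10) and 17.7% (Krt5 alone). They were 11.95% with Krt5 alone among primary BC donor-derived cells, and 4.30% (below 20) and 19.1% (Krt5 alone) among primary BC endogenous cells. Counts of genes moved by over 1.5 times in these alternatives. For iBC donor-derived over endogenous members they were 594 (ciliated sum below 10), 313 (carriers of rarer-type and ciliated lists left out) and 774 (at least 50 CPM), and for iBC over primary BC donor-derived members 880 (at least 50 CPM). Against basal-gated cells, iBC donor-derived members gave 307 (below 20), 249 (carriers left out), 317 (pseudocount 20), 988 (no minimum) and 307 (at least 50 CPM). The iBC endogenous members gave 981 (below 20), 859 (ciliated sum below 10), 181 (carriers left out) and 1073 (at least 50 CPM). Primary BC donor-derived members gave 912 (at least 50 CPM), and primary BC endogenous members 841 (below 20) and 927 (at least 50 CPM). Against secretory-gated cells, iBC donor-derived members gave 600 (TMM), 554 (median-centred), 484 (pseudocount 20) and 616 (at least 50 CPM), and iBC endogenous members 883 (carriers left out), 1156 (TMM), 974 (median-centred), 1464 (pseudocount 20) and 1448 (at least 50 CPM). For primary BC donor-derived over endogenous members the count was 369 with a mitochondrial share of at most 20%. The other gene counts stayed within 1.5 times. Of the log2 ratios of named genes, 13 changed sign or came to 0. With carriers left out these were 0 for Cdh26 and Calca (iBC donor-derived over endogenous), 0 for Hepacam2 (iBC donor-derived over basal-gated), 0 for Ccl9 (iBC endogenous over secretory-gated), -0.16 for Fxyd2, -0.34 for Hepacam2 and -0.044 for Ccl9 (iBC donor-derived over secretory-gated), -0.44 for Ccl9 and -0.18 for Fxyd2 (iBC endogenous over basal-gated) and -0.11 for Fxyd2 (iBC endogenous over secretory-gated). With Krt5 and Krt15 below 5, Krt4 was at 0.96 (iBC over primary BC donor-derived) and Fmo6 at 0.16 (primary BC donor-derived over endogenous), and with the ciliated sum below 10 AU040972 was at -0.20 (primary BC donor-derived over endogenous). The causes were not tested beyond the cells each alternative leaves out. The Krt5-only limit, the carrier rule and the minimum of 30 cells were chosen after seeing the data. With 36 to 78 members per library, a marker at a few UMIs has a wide interval, and intervals leave out variation between animals.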
